A study of Mus musculus with 25 samples.

Results

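The homeobox and Pax genes that lie outside the Hox clusters were examined in reduced representation bisulfite sequencing (RRBS) of mouse mammary fat pads, an assay that reads DNA methylation on short MspI fragments rich in CpG sites. The set holds 57 genes chosen by name, out of 16283 gene names in the deposited table. Their 2340 CpGs included 2263 with an average coverage of at least 10 reads, of which 1536 had values in at least 3 mice of each diet group and were tested. C57BL/6N mice, labelled wild type, ate either the D12450J control diet (Control, 5 mice) or D12492, a 60% high-fat diet on which they became obese. Some of the obese mice stayed on it (Obese) and the others lost weight on 1 of 4 diets, which were an unrestricted low-fat diet (LFD), the same kind of diet with calories cut by 30% (LFCR), a Mediterranean-style diet with the same cut (MCR) and intermittent calorie restriction (ICR). At 25 weeks every mouse, Control included, received E0771 mouse mammary cancer cells in the 4th fat pad, and DNA came from the 9th pad on the opposite side at the end point. The labels call this tissue normal, although the sample titles hold the word tumor and the cell line field names E0771. The comparisons used 21 of 25 libraries: 5 Control, 3 LFD, 4 LFCR, 3 MCR and 5 ICR mice and Obese mouse 22. Every weight-loss mouse had been obese before and no Control mouse had, so the diet and the earlier obesity cannot be told apart against Control.

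Homeobox genes encode transcription factors that bind DNA through a homeodomain, and Pax genes encode factors with a paired domain, some of which carry a homeodomain as well. They set the identity of organs and cell types in the embryo, among them the eye, gut, limb, spinal cord and B cells, and most are silent in adult tissue outside their own lineage. In such tissue their CpG-rich starts are usually held by Polycomb proteins rather than by DNA methylation. Fat pad DNA comes from adipocytes, epithelium, leukocytes, vessels and stroma together, so a change in the share of a cell type and a change of methylation within cells cannot be told apart.

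Upstream of their transcription starts these genes were CpG-rich, and the 11 CpGs measured there, in 9 of the genes, were nearly unmethylated. RefSeq promoter windows (GRCm38.p6, the build also named mm10) were matched for 45 of the 57 genes, giving 54 windows. In the 250 bases before the start, the median window of the set held 15.5 CpGs, against 6 over 32851 windows of all genes. CCGG, the site cut by MspI and the same letters on both strands, was found in 44 of the 54 windows (81.5%), against 47.1% of all windows. The table covered 11 CpGs in these windows, in 9 of the genes, each inside a CCGG. Their mean Control level ran from 0 to 5.78%, no library among the 21 was above 9.09%, and 0 of the 11 were called in MCR against Control. The bases around 5 of these CpGs, in 4 genes that recur in the results, are printed 5′ to 3′ on the strand of the gene, with the measured CpG in capitals. Irx3 (chr8:91801854-91801883, minus strand) stands for genes whose body gained methylation and Pax7 (chr4:139833174-139833203 and chr4:139833045-139833074, minus strand) for genes that lost it along the body. Pax2 (chr19:44756700-44756729, plus strand) was called lower in both its promoter and its body, and Lhx3 (chr2:26206691-26206720, minus strand) held the most methylated of the 11 CpGs.

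Irx3, 215 bases upstream: cagggtgcggagacCGgggaagaggggaag
Pax7, 221 bases upstream: cttctggccgagccCGgcgggtggaggcgg
Pax7, 92 bases upstream: ggcgcgtctgcaacCGggtgggggggggtg
Pax2, 192 bases upstream: caggctccagtctcCGgccgagtcttcttg
Lhx3, 131 bases upstream: aggcacctcggttcCGgctgaaaggtgcac

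The capital CG of Irx3 lay 215 bases before the start and had a mean level of 1.12% ± 1.18 (SD, n = 5) in Control and 0% in all 3 MCR mice. Those of Pax7 lay 221 and 92 bases before the start, at 1.46% and 0.800% in Control and 0.483% and 0% in MCR. The capital CG of Pax2, 192 bases before the start, was at 1.66% in Control and 1.61% in MCR. The Lhx3 CpG, 131 bases before the start, was at 5.78% ± 2.41 (SD, n = 5) in Control and 3.76% ± 0.815 (SD, n = 3) in MCR. None of these 5 CpGs was called in MCR against Control.

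Here a promoter level is the mean over the CpGs that the table annotates to the 1500 or 200 bases upstream of a gene's start, its 5'UTR or its 1st exon, with at least 3 tested CpGs. For these genes nearly all such CpGs lay in the 1st exon or the 5'UTR. A body level is the same over CpGs annotated to the gene body, and a region is a run of at least 3 tested CpGs with gaps of at most 200 bp. Promoters were tested for 36 of the 57 genes and bodies for 48, and 216 regions belonged to 50 of them. Irx6, Isl1, Msx2, Pax8 and Six6 had neither a tested promoter nor a tested body. Values of single mice stand in the order of their numbers, which were 1, 2, 5, 10 and 13 in Control, 85, 95 and 96 in MCR, 63, 67, 69 and 72 in LFCR, 42, 47 and 48 in LFD and 102, 103, 105, 106 and 112 in ICR. All values are percent methylation, and a call is a Benjamini-Hochberg adjusted p under 0.05 in limma over every feature of that kind in the table, members and others alike. No pad was sampled before the diets, so "fell" and "rose" stand for lower and higher than in Control. In Control the members were far less methylated than the table at large, with a median of 4.36% over member promoters against 24.4% over all promoters, 13.1% against 66.8% over bodies and 12.2% against 70.3% over regions. Islands held 36.5% of member CpGs and shores, the flanks of islands, held 35.6%, against 20.1% and 14.7% of all CpGs. The average coverage of the tested member CpGs had a median of 68.3 reads, with a lower quartile of 45.9.

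The libraries of Obese mice 27, 28 and 40 and LFD mouse 46 were left out as libraries that stand apart. Member promoter CpGs had a mean level of 45.5 to 46.5% in them and of 6.02 to 10.0% in the other 21. Over all CpGs the mean ran from 60.2 to 66.2% in these 4 libraries and from 46.5 to 58.3% in the 21. The 4 libraries had values at 210 to 222 of the 264 member promoter CpGs used, so their means cover fewer CpGs. Lists of cell type markers also differed between the groups that are compared, and their part in the results on the homeobox and Pax genes was not tested. Of 7 tested leukocyte promoters, 5 were higher and 2 lower in MCR than in Control (limma), and their mean level ran from 26.8 to 35.0% in Control mice, 43.2 to 46.6% in MCR, while LFCR mice ran from 31.4 to 43.7%, those of LFD from 30.5 to 40.9% and ICR mice from 30.0 to 37.3%. Of 6 mammary epithelial promoters, 4 were lower in MCR and 0 higher. Their mean level was 45.2% in Control mouse 1, 30.5 to 34.0% in the other Control mice and 18.5 to 20.1% in MCR. It was 20.4 to 28.8%, 20.9 to 27.2% and 22.8 to 27.2% after LFCR, LFD and ICR. Each mean of a list was taken over the features that a mouse had, so a mouse with missing features is not strictly comparable. Leukocyte gene bodies had 4 lower and 3 higher of 9, and epithelial gene bodies 1 lower and 2 higher of 7. Of 2 adipocyte promoters 1 was lower. Of 4 adipocyte gene bodies, 4 were lower in MCR, where 61% of all bodies were lower, with 69.95 to 81.5% in Control, 55.7 to 61.2% in MCR and 58.7 to 73.8% in LFCR. Endothelial promoters had 2 lower and 1 higher of 7, fibroblast promoters 2 lower of 2 and skeletal muscle promoters 3 lower and 1 higher of 4. Their bodies had 5 lower and 1 higher of 7, 3 lower and 1 higher of 5, and 6 lower of 7. For scale, 43.2% of all promoters were lower in MCR than in Control and 4.26% higher. The shares of all bodies were 61% lower and 4.19% higher. The cell type lists were not tested against these shares.

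In MCR fat pads a smaller share of the homeobox and Pax genes lost methylation than of the table at large, and a set of their bodies and shores gained it. Of 36 member promoters, 9 fell and 1 rose, or 25.0% and 2.78%, against 43.2% lower and 4.26% higher over all 2792 promoters. Among 48 bodies 14 fell and 6 rose, or 29.2% and 12.5%, against 61% lower and 4.19% higher over 5556 bodies. Of 216 regions 68 fell and 23 rose, or 31.5% and 10.6%, against 53.2% lower and 6.33% higher over 17055 regions. At single CpGs 256 of 1536 fell and 114 rose, or 16.7% and 7.42%, against 32.8% lower and 4.54% higher over 129217 CpGs. The median difference over member bodies was -0.886 points, against -7.58 over all bodies, and over member regions it was -1.89 against -7.98. No test compared the members with other genes, so these shares are a description, and they are not matched for the level in Control. Of the 50 genes with a tested region, 20 had regions that fell only, 9 regions that rose only, 7 both kinds and 14 neither. These genes had from 1 to 18 tested regions each, and the same split over all genes is not given here. Whether called or not, the MCR and Control mice did not overlap at 64 member regions that were lower and 16 that were higher, of 216, against 55.3% of all regions in either direction. Leaving out the 1st exon CpGs left 9 member promoters to test, of which 2 were called, and taking in the 4 libraries that were set aside left 1 promoter, 5 body and 42 region calls of 10, 20 and 91.

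**Figure D1:**
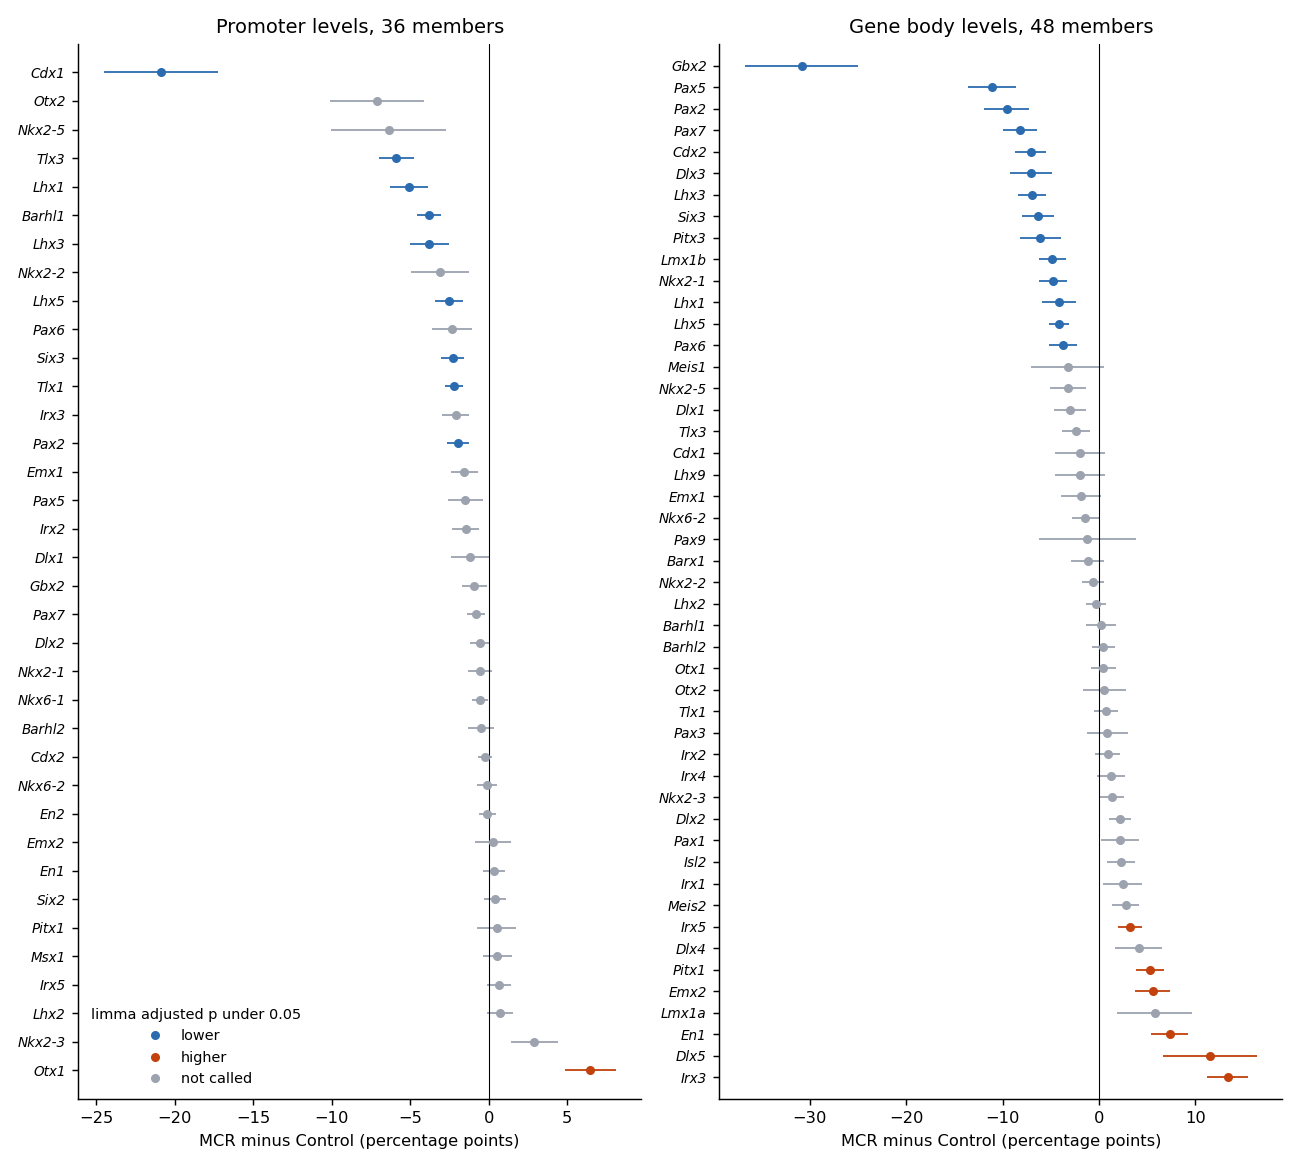
Difference of the mean methylation level between MCR and Control mice, in percentage points with its standard error, for each of 36 member promoters (left) and 48 member gene bodies (right), coloured by the limma call. Cdx1 stood lowest among the promoters at -20.9 points, and among the bodies Gbx2 was at -30.8 and Irx3 at 13.3.

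How much of the set fell went with how methylated a region was in Control. Of 82 member regions under 10% in Control, 12.2% fell and 1.22% rose, against 9.27% and 4.26% of all such regions. In the 89 member regions of 10 to 30%, 32.6% fell and 24.7% rose, against 41.3% and 19.4% of all. Member regions of 30 to 70% fell in 73.1% of 26 cases and rose in 0, where all regions of that level fell in 58.6% and rose in 11.6%. Over 70%, 52.6% of 19 member regions fell and 0 rose, while 65.8% of all such regions fell. Gains of member regions thus came from a narrow range of low to moderate levels, 6.43 to 29.5% in Control. Other kinds of feature did not all show the same. At 10 to 30%, 20.6% of 504 single member CpGs fell and 12.3% rose, against 23.5% and 14.3% of all. Of 26 member bodies at that level 23.1% fell and 19.2% rose, against 40.4% and 13.9%. Under 10%, 17.9% of 28 member promoters fell and 0 rose, against 13.4% and 2.72% of all. By place, 14 of 79 member shore regions rose and 18 fell, where 7.49% of all shore regions rose and 54% fell. In islands 6 of 81 rose and 19 fell, where 4.01% and 28.5% of all did. Of 46 open sea regions, those far from islands, 1 rose and 26 fell, where 6.64% and 59.1% of all did. Shelf regions had 2 higher and 5 lower of 10, where 7.02% and 64.1% of all did so.

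**Figure D2:**
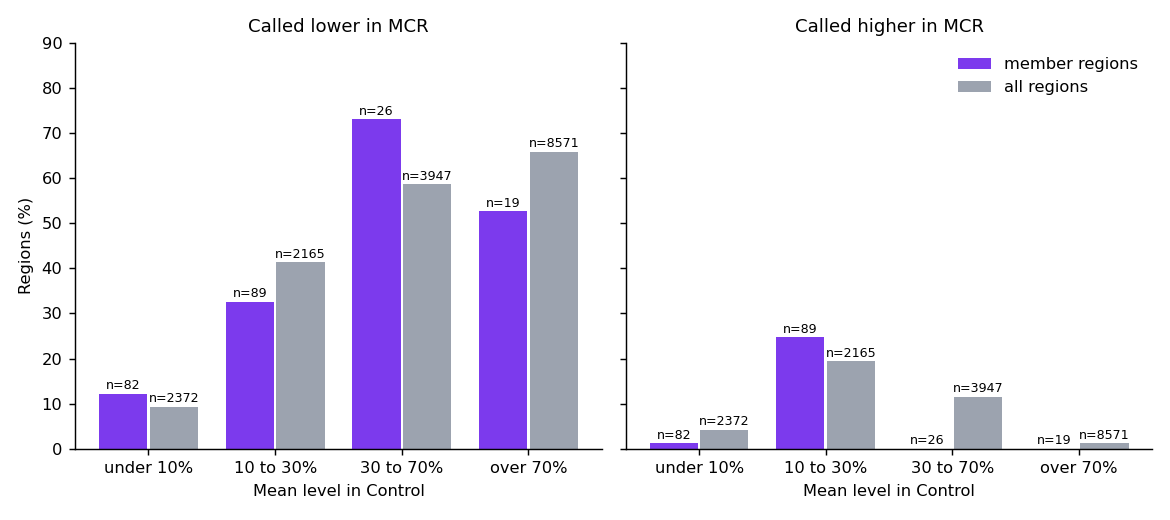
Share of regions called lower (left) and higher (right) in MCR against Control, in percent, by the mean level of the region in Control, for member regions and for all regions, with the number of regions above each bar. The members rose in the bands under 10% (1.22%) and 10 to 30% (24.7%) and in 0 regions above 30%.

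The 9 promoters that fell were those of Cdx1, Tlx3, Lhx1, Barhl1, Lhx3, Lhx5, Six3, Tlx1 and Pax2. Cdx1, a caudal-type factor of the intestinal epithelium, had the most methylated promoter of the set, 36 CpGs of its 1st exon in an island on chromosome 18. Its levels were 39.5, 44.4, 39.2, 33.3 and 38.8% in the Control mice and 16.5, 16.5 and 21.5% in the MCR mice. All 3 MCR mice lay below every Control mouse, and the promoter fell by 20.9 points (SE 3.63, adjusted p = 0.000824). Mice of the other diets lay between or beside these groups, with 15.8, 20.2, 28.8 and 35.1% in LFCR, 21.4, 30.2 and 29.2% in LFD, 30.4, 26.7, 33.1, 34.3 and 35.3% in ICR and 33.6% in Obese mouse 22. Tlx3, a factor of sensory and autonomic neurons (chr11:33203047-33203538, 8 island CpGs), had 12.4, 11.1, 9.64, 8.31 and 10.3% in the Control mice and 3.63, 5.12 and 4.68% in the MCR mice, again without overlap, and fell by 5.87 points (SE 1.14, adjusted p = 0.00104). At Tlx1, its relative needed for the spleen, the groups did not overlap either and the promoter fell by 2.23 points (SE 0.577, adjusted p = 0.00507), from 5.10% ± 0.485 (SD, n = 5) to 2.87% ± 0.895 (SD, n = 3). Barhl1, a factor of hair cells and cerebellar neurons (chr2:28915267-28916665), had 11.5, 12.9, 12.1, 12.1 and 13.5% in the Control mice and 9.96, 8.05 and 7.79% in the MCR mice and fell by 3.81 points (SE 0.761, adjusted p = 0.00115).

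Among the LIM homeobox genes, which couple a homeodomain with LIM zinc fingers, Lhx1 had the largest promoter fall. Lhx1 is needed for head and kidney formation, and its 17 tested CpGs lay at chr11:84522158-84525169, with 11.1, 11.97, 11.2 and 11.6% in the Control mice (4 of 5 mice measured) and 4.61, 6.07 and 8.52% in the MCR mice. The 4 Control values lay close together and above all 3 MCR values, and the level fell by 5.06 points (SE 1.20, adjusted p = 0.00331). Lhx3, a pituitary and motor neuron factor, fell by 3.77 points (SE 1.26, adjusted p = 0.0213), and Lhx5, a forebrain factor, fell by 2.53 points (SE 0.902, adjusted p = 0.0292), both with overlap of the mice. MCR mouse 96 was the highest of its group in both, with 7.39% at Lhx3 and 3.41% at Lhx5. Six3, an eye and forebrain factor whose CpGs are shared with Six3os1 and other transcripts, fell by 2.29 points (SE 0.750, adjusted p = 0.0193), and Pax2, a kidney and ear factor, fell by 1.96 points (SE 0.694, adjusted p = 0.0285). Without its 12 CpGs of the 1st exon, the 6 5'UTR CpGs of Pax2, which lie 78.8 kb from the RefSeq start, gave a difference of 0.714 points. These last 4 calls were the least firm of the promoters. Without MCR mouse 85 or 95 the calls of Lhx3 (-3.41 and -2.40 points) and Six3 (-2.30 and -1.65) were lost, as was that of Lhx5 without any of Control mice 1, 2, 5 and 13 or MCR mice 85 and 95 (-2.49 to -2.13) and that of Pax2 without MCR mouse 85 or 96 or either of Control mice 2 and 13 (-1.87 to -1.74).

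Otx1, a factor of forebrain and sense organs, was the member promoter that rose. Over its 15 tested CpGs the levels were 8.76, 10.9, 13.5, 16.2 and 14.4% in the Control mice and 19.4, 18.5 and 19.8% in the MCR mice, and 19.7, 18.2, 12.6 and 14.1% in LFCR, 17.9, 16.9 and 16.5% in LFD, 15.3, 17.9, 16.5, 15.5 and 15.01% in ICR and 17.2% in Obese mouse 22. Every MCR mouse lay above every Control mouse, and the level rose by 6.49 points (SE 1.61, adjusted p = 0.00382). The gain sat in 2 shore regions of the 1st exon. At chr11:21999866-21999958 the levels were 9.48, 16.3, 21.7, 25.7 and 18.7% in the Control mice and 37.7, 32.4 and 38.99% in the MCR mice, a region that rose by 17.98 points (SE 3.55, adjusted p = 0.000864). Without the CpGs of the 1st exon, the remaining 5 promoter CpGs of Otx1 gave a difference of -0.581 points. The related Otx2, at 17.2% ± 5.85 (SD, n = 4) in Control and 10.1% ± 1.89 (SD, n = 3) in MCR, did not pass the test (adjusted p = 0.0640).

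Of 7 tested Pax bodies, those of Pax2, Pax5, Pax6 and Pax7 fell and 0 rose, where 61% of all bodies fell. Of 54 Pax regions 27 fell and 2 rose, shares near those of the table, where 53.2% of all regions fell and 6.33% rose. Pax7, the factor of muscle satellite cells, had 120 tested body CpGs across chr4:139751135-139832789, with 35.7, 36.8, 35.2, 33.6 and 35.8% in the Control mice and 26.7, 27.8 and 27.2% in the MCR mice. All MCR values lay below all Control values, and the body fell by 8.20 points (SE 1.78, adjusted p = 0.00104). Pax5, the factor that commits cells to the B lineage, had 99 body CpGs, with 47.5, 55.4, 49.2, 48.6 and 50.3% in the Control mice and 39.02, 37.8 and 40.4% in the MCR mice, and fell by 11.1 points (SE 2.50, adjusted p = 0.00128). Pax2 had 46 body CpGs and fell by 9.57 points (SE 2.34, adjusted p = 0.00239), from 54.1% ± 2.42 (SD, n = 4) to 44.5% ± 0.933 (SD, n = 3). Pax6, the eye and pancreas factor, fell by 3.73 points (SE 1.41, adjusted p = 0.0280). Pax1, Pax3 and Pax9, of somites, neural crest and pharyngeal pouches, had body differences of 2.15, 0.873 and -1.22 points that did not pass.

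Within these genes the falls were uneven. The largest of any member region lay in the Pax7 body, 75.8 kb from its RefSeq start, at chr4:139757010-139757300, where 10 open sea CpGs had 51.2, 56.2, 43.4, 43.9 and 49.8% in the Control mice and 13.2, 15.4 and 15.3% in the MCR mice. No MCR mouse came near a Control mouse, and the region fell by 34.2 points (SE 6.22, adjusted p = 0.000612). At the same region LFCR mice 63 and 67 had 12.8 and 15.7%, while LFCR mice 69 and 72 had 31.8 and 37.9%. Of 18 Pax7 regions 11 fell and 1 rose, where 53.2% of all regions fell and 6.33% rose. The region that rose, chr4:139813388-139814076, lay 19.2 kb from the start between 2 regions that were not called, with 7.79, 8.11, 15.2, 13.3 and 11.7% in the Control mice and 29.1, 23.5 and 27.5% in the MCR mice, and it rose by 15.5 points (SE 2.69, adjusted p = 0.000535). In Pax5, 8 of 13 regions fell and 0 rose, against the same 53.2% and 6.33% of all regions. A 4-CpG region 149 kb from the start (chr4:44561162-44561233) had 75.2, 77.9, 68.6, 74.3 and 71.5% in the Control mice and 45.7, 47.5 and 52.96% in the MCR mice and fell by 24.8 points (SE 3.81, adjusted p = 0.000460). A Pax5 island of 37 CpGs at chr4:44664076-44664672, 46.3 kb from the start and shared with the transcript Gm12462, had 2.91, 22.02, 12.6, 9.85 and 15.3% in the Control mice and 2.02, 1.39 and 2.16% in the MCR mice. It fell by 10.7 points (SE 3.31, adjusted p = 0.0115), with all MCR mice below every Control mouse and Control mouse 1 near them. LFCR mice 63 and 67 and LFD mouse 42 were as low, at 1.33, 2.77 and 2.46%. A run of 16 open sea CpGs at chr4:44558064-44558414 went from 16.9% ± 4.71 (SD, n = 5) to 2.99% ± 2.43 (SD, n = 3), and fell by 13.9 points (SE 3.94, adjusted p = 0.00691). Both Pax5 regions were chosen for print after their values were seen.

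Lmx1b, a LIM homeobox gene of limb and serotonin neurons, changed in both directions along its length. Of its 16 regions 7 fell and 5 rose, where 53.2% of all regions fell and 6.33% rose. Its body level over 110 CpGs fell by 4.82 points (SE 1.43, limma adjusted p = 0.00755). The gains lay near the start, at 3.70, 4.85, 11.1 and 12.1 kb into the gene, and in an island at 60.4 kb. The region 11.1 kb in, chr2:33629957-33630126, had 13.5, 15.2, 21.7, 17.2 and 22.3% in the Control mice and 34.8, 30.7 and 37.6% in the MCR mice, without overlap, and rose by 16.4 points (SE 3.80, adjusted p = 0.00206). Those at 3.70, 4.85, 12.1 and 60.4 kb rose by 11.2, 8.60, 8.86 and 6.46 points. The losses lay in open sea or shelf at 33.0 to 76.5 kb, apart from a small one of 4.85 points in the island 0.718 kb from the start. At 48.0 kb, chr2:33592942-33593217 had 63.3, 70.5, 57.2, 58.99 and 60.2% in the Control mice and 28.5, 34.4 and 23.3% in the MCR mice and fell by 33.3 points (SE 5.99, adjusted p = 0.000582). At 65.5 kb, chr2:33575555-33575731 had 52.6, 61.7, 45.9, 43.7 and 49.4% in the Control mice and 22.5, 17.4 and 20.4% in the MCR mice and fell by 30.6 points (SE 5.65, adjusted p = 0.000650). At 33.0 kb, chr2:33608062-33608201 fell by 22.04 points (SE 4.89, adjusted p = 0.00160), from 66.6% ± 6.00 (SD, n = 5) to 44.6% ± 2.25 (SD, n = 3). In each of these 3 regions the mice of MCR and Control did not overlap. The Control level was 50.7 to 66.6% at these 3 losses and 10.9 to 24.0% at the 5 gains. Over all 7 losses it ran from 9.00% at 0.718 kb to 88.3% at 76.5 kb. Lmx1a, the midbrain relative, had 2 regions, of which 1 rose.

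**Figure D3:**
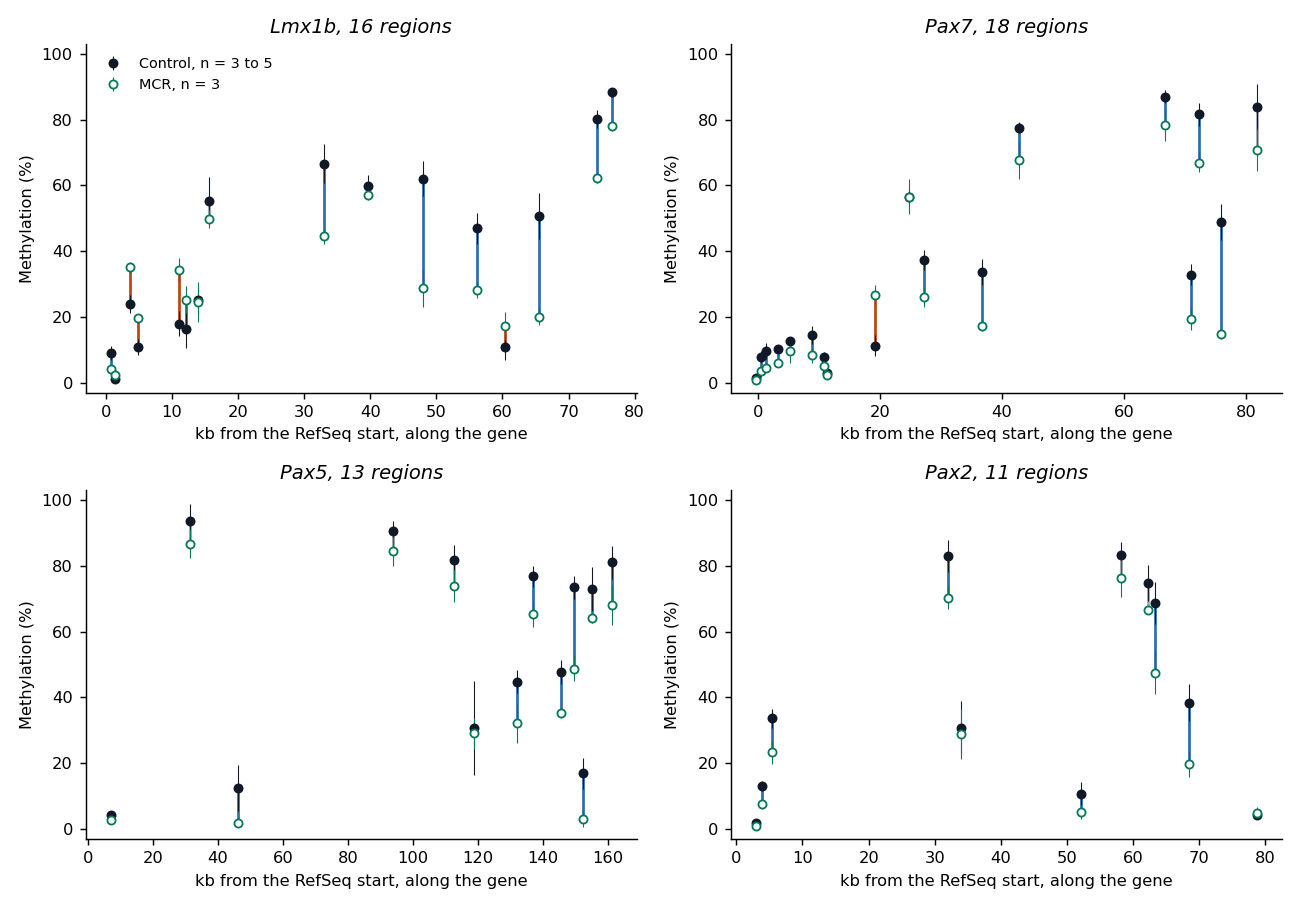
Mean methylation level in percent (SD as bars) of each tested region of Lmx1b, Pax7, Pax5 and Pax2 in Control (filled) and MCR (open), against the distance of the region from the RefSeq start in kb. Lines join the groups, blue where the region fell, orange where it rose and grey where it was not called; the Lmx1b gains sit within 12.1 kb of the start and at 60.4 kb, and the large losses beyond 33.0 kb.

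Of 8 tested LIM bodies, that of Lmx1b among them, 4 fell and 0 rose, against 61% lower and 4.19% higher over all bodies. The other 3 that fell were those of Lhx3, Lhx1 and Lhx5. The Lhx3 body fell by 6.92 points (SE 1.43, adjusted p = 0.000761), from 17.3% ± 1.94 (SD, n = 5) to 10.4% ± 1.54 (SD, n = 3). The Lhx1 body fell by 4.15 points (SE 1.75, adjusted p = 0.0462), with overlap of the mice. The Lhx5 body, over 32 CpGs, fell by 4.10 points (SE 1.04, adjusted p = 0.00287), from 7.02% ± 0.778 (SD, n = 5) to 2.92% ± 0.483 (SD, n = 3). Lhx2, a hair follicle and forebrain factor with 57 body CpGs, had 14.8% in Control and 14.5% in MCR and did not pass. Isl2, of motor neurons, had 1 region lower and 1 higher of 2. In all, 17 of 49 LIM regions fell and 7 rose, against 53.2% and 6.33% of all regions.

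The Irx genes, Iroquois factors that lie in a cluster on chromosome 13 (Irx1, Irx2, Irx4) and another on chromosome 8 (Irx3, Irx5, Irx6), had called body gains at 2 genes, Irx3 and Irx5. In all 0 of 5 tested Irx bodies fell and 2 rose, against 61% lower and 4.19% higher over all bodies. Irx3, a factor linked to adipocyte energy use, had the largest body gain of the set. Its 21 body CpGs at chr8:91799053-91800945 had 11.5, 12.4, 14.8, 16.4 and 13.5% in the Control mice and 27.6, 27.3 and 26.3% in the MCR mice, and 27.5, 26.3, 17.9 and 16.95% in LFCR, 20.6, 18.8 and 19.9% in LFD, 20.5, 23.1, 18.6, 17.5 and 18.1% in ICR and 19.4% in Obese mouse 22. All MCR mice, all LFCR mice, all LFD mice and all ICR mice lay above every Control mouse, as did Obese mouse 22. The body rose by 13.3 points (SE 2.14, adjusted p = 0.000415). The gain was held by chr8:91799422-91799975, 1.96 kb into the gene, which rose by 15.6 points (SE 2.44, adjusted p = 0.000470), whereas the region nearer the start at 0.945 kb was at 4.32% in Control and 2.33% in MCR (adjusted p = 0.0753). The Irx3 promoter was at 3.03% ± 1.96 (SD, n = 5) in Control and 0.903, 0.482 and 1.41% in the MCR mice, which did not pass. Irx5, of heart and eye, had 12.9, 14.4, 14.2, 14.8 and 13.7% in the Control mice and 15.8, 16.7 and 19.1% in the MCR mice over 47 body CpGs and rose by 3.20 points (SE 1.25, adjusted p = 0.0324). That call was lost without Control mouse 1 (2.92 points) or 13 (3.14) or without MCR mouse 95 (3.47) or 96 (2.25). On chromosome 13, the bodies of Irx1, Irx2 and Irx4 differed by 2.44, 0.893 and 1.23 points and did not pass. A difference between the clusters was not tested, and Irx3 CpGs are partly annotated to the antisense transcript Irx3os as well.

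Genes of brain patterning moved both ways. Gbx2, which marks the anterior hindbrain, had the largest body loss of the set, in an island of its body with 15 tested CpGs. The levels were 51.7, 68.5, 51.96, 42.97 and 59.9% in the Control mice and 24.1, 23.7 and 24.8% in the MCR mice, and 25.9, 29.6, 41.6 and 49.6% in LFCR, 27.9, 47.6 and 38.7% in LFD, 46.5, 36.04, 37.4, 45.99 and 52.8% in ICR and 50.4% in Obese mouse 22. The MCR mice lay close together and below every Control mouse, and the body fell by 30.8 points (SE 5.88, adjusted p = 0.000533). Most of these CpGs form the region chr1:89928771-89928994, 2.29 kb into the gene, which fell by 33.1 points (SE 6.46, adjusted p = 0.000816). The region at its start, chr1:89930209-89931729, whose CpGs are partly annotated to the transcript D130058E05Rik, also fell, from 14.8% ± 3.71 (SD, n = 5) to 4.66% ± 0.234 (SD, n = 3). En1, the engrailed factor of midbrain and dorsal skin, went the other way, with 12.5, 10.05, 13.8, 13.1 and 10.8% in the Control mice and 19.9, 14.9 and 23.4% in the MCR mice over 17 body CpGs, and rose by 7.35 points (SE 1.90, adjusted p = 0.00316). Emx2, of cortex and urogenital tract, had 8.49, 8.72, 11.02, 11.99 and 8.92% in the Control mice and 18.9, 10.8 and 16.4% in the MCR mice and rose by 5.56 points (SE 1.82, adjusted p = 0.0132). Its groups overlapped, since MCR mouse 95 lay among the Control mice, and the call was lost without MCR mouse 85 (3.80 points) or 96 (5.04). The Emx1 body and the promoters of Gbx2, En1, En2, Emx1 and Emx2 did not pass.

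The Dlx genes, distal-less factors of limb, jaw and forebrain, had 3 of 9 regions lower and 1 higher, against 53.2% and 6.33% of all regions. Dlx5, of bone and placenta, had 6.89, 16.3, 18.7 and 13.9% in the Control mice (4 of 5 mice measured) and 21.3, 26.1 and 28.96% in the MCR mice over 7 shore CpGs and rose by 11.5 points (SE 4.86, adjusted p = 0.0470). The call was lost without Control mouse 2 (9.15 points), 5 (12.3) or 13 (11.5) or without MCR mouse 95 (11.2) or 96 (9.76). Its region chr6:6879029-6879097 had 1.63, 1.48, 9.68, 9.75 and 9.58% in the Control mice and 16.01, 23.2 and 27.3% in the MCR mice and rose by 15.8 points (SE 4.91, adjusted p = 0.0118), a call that was lost without MCR mouse 96 (13.2 points). Dlx3, of skin and hair, fell by 7.06 points (SE 2.20, adjusted p = 0.00993), from 29.6% ± 1.90 (SD, n = 5) to 22.6% ± 1.16 (SD, n = 3). Pitx1, the hindlimb factor, rose by 5.30 points (SE 1.48, adjusted p = 0.00521), with 14.04, 14.7, 17.8, 16.2 and 17.9% in the Control mice and 21.9, 19.1 and 23.3% in the MCR mice and no overlap, and Pitx3, of lens and midbrain, fell by 6.08 points (SE 2.15, adjusted p = 0.0207). Of the gut factors, the Cdx2 body fell by 7.08 points (SE 1.58, adjusted p = 0.00120), with 14.2, 14.5, 11.5, 10.5 and 12.6% in the Control mice and 6.26, 2.21 and 8.27% in the MCR mice. The Nkx genes, of lung, pancreas, heart and oligodendrocytes, had 5 regions lower and 2 higher of 21, against the same 53.2% and 6.33% of all. Near Nkx6-2, 4 island CpGs annotated as intergenic at chr7:139580944-139580972 had 23.1, 20.8, 17.1, 37.1 and 29.1% in the Control mice and 49.5, 38.2 and 38.3% in the MCR mice and rose by 16.6 points (SE 4.46, adjusted p = 0.00508). Nkx2-1, the lung and thyroid factor, had a body level of 8.50% ± 2.63 (SD, n = 4) in Control and 3.69% ± 0.923 (SD, n = 3) in MCR and fell by 4.81 points (SE 1.46, adjusted p = 0.00901).

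**Figure D4:**
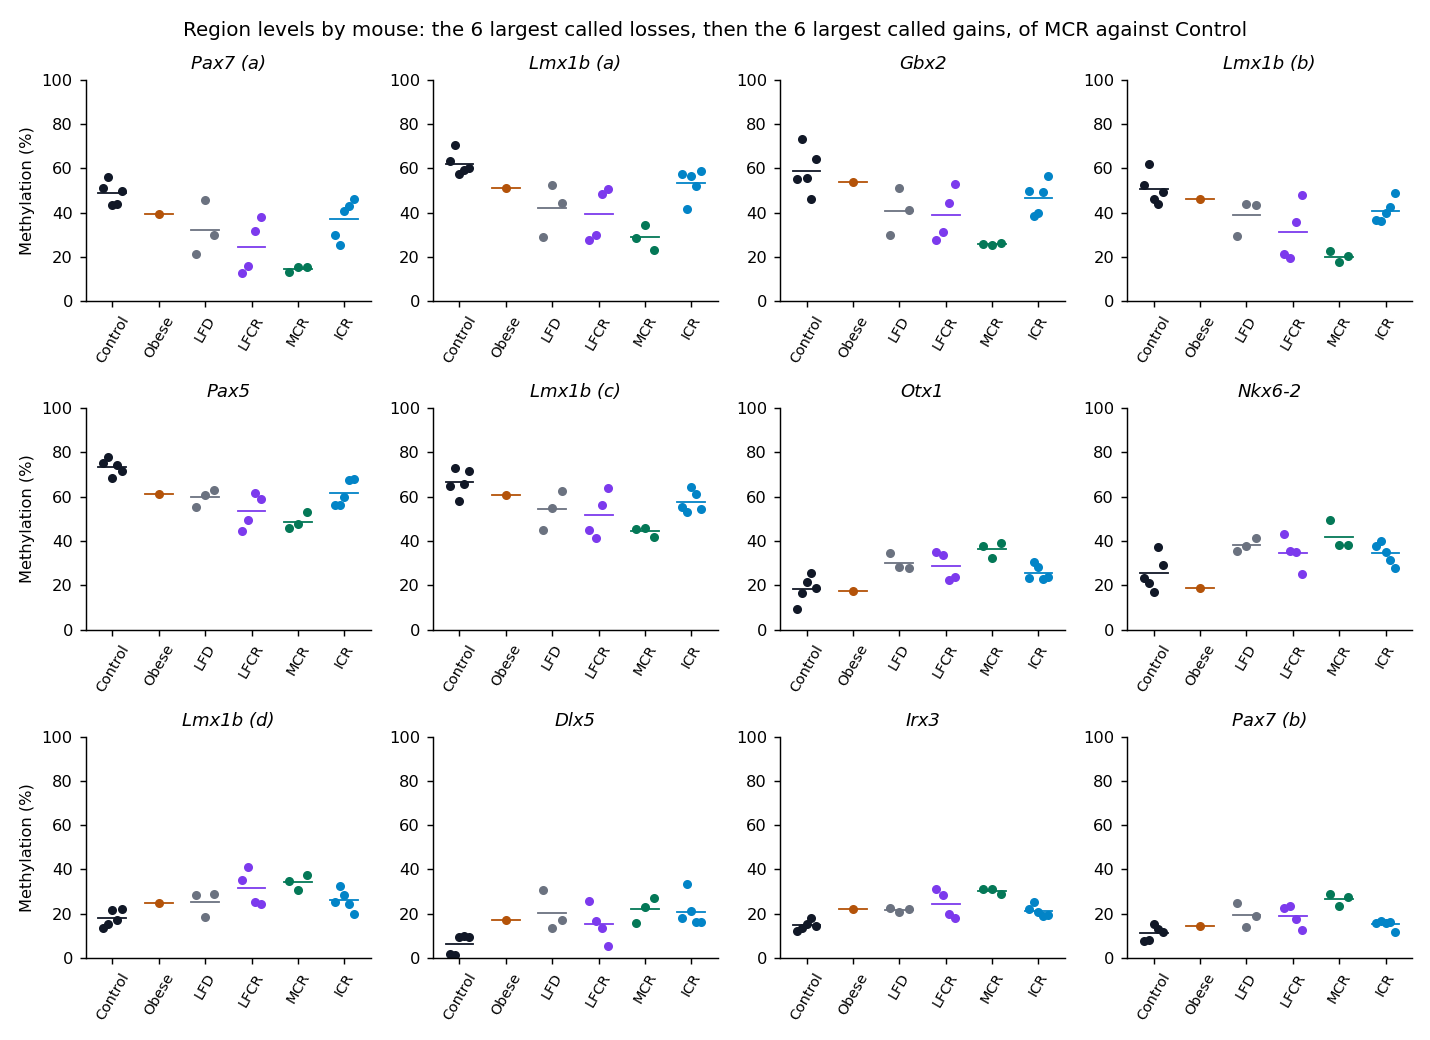
Methylation level in percent of each mouse (points) and the mean of its group (lines) at the 6 member regions with the largest called losses and the 6 with the largest called gains of MCR against Control, with the regions of a gene lettered in order of size within each direction. The MCR and Control mice did not overlap in any of the 12, which were chosen by that same difference. Over all called member regions they did not overlap at 56 of the 68 that fell and 16 of the 23 that rose. In each panel 1 point stands for Obese mouse 22.

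Single CpGs reached larger differences. In Lmx1b the CpG at position 33575670 of chromosome 2, inside the region 65.5 kb from the start, had 62.05, 79.3, 64.4, 55.4 and 67.8% in the Control mice and 27.7, 15.4 and 26.7% in the MCR mice and fell by 42.5 points (SE 8.31, adjusted p = 0.00169). In Pax2 the CpG at position 44820311 of chromosome 19, 63.4 kb into the gene, had 81.8, 76.5, 72.7 and 66.7% in the Control mice (4 of 5 mice measured) and 38.1, 35.7 and 23.1% in the MCR mice and fell by 42.1 points (SE 8.70, adjusted p = 0.00235). Among gains, a body CpG of Irx3 at position 91799577 of chromosome 8 had 8.75, 14.6, 20.1, 25.5 and 20.1% in the Control mice and 56.96, 53.8 and 49.4% in the MCR mice and rose by 35.6 points (SE 5.72, adjusted p = 0.000942). A body CpG of Cdx1, away from the island that fell, had 33.3, 18.6, 43.6, 46.3 and 31.7% in the Control mice and a mean of 73.04% ± 2.80 (SD, n = 3) in MCR, and rose by 38.3 points (SE 7.57, adjusted p = 0.00176). At each of these 4, which were chosen for the size of that same difference, the MCR and Control mice did not overlap. Their average coverage was 145, 31.4, 141 and 56.9 reads, while the depth of single libraries is unknown.

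In LFCR mice fewer members were called than in MCR mice. Of 36 promoters 7 fell and 0 rose, or 19.4% and 0%, against 25% lower and 2.08% higher over all promoters, and of 48 bodies 8 fell and 2 rose, against 39.8% and 2.52%. Of 216 regions 37 fell and 12 rose (31.5% and 3.47% over all), and of 1536 CpGs 92 fell and 26 rose (12.1% and 1.48% over all). The promoters of largest fall were Cdx1, with 15.8, 20.2, 28.8 and 35.1% in mice 63, 67, 69 and 72, which fell by 14.1 points (SE 3.34, adjusted p = 0.0162), and Tlx3, with 4.10, 4.20, 5.85 and 9.15%, which fell by 4.53 points (SE 1.05, adjusted p = 0.0158). Lhx1 fell by 3.75 points, Irx3 by 2.65 and Barhl1 by 2.62. Among bodies Gbx2, with 25.9, 29.6, 41.6 and 49.6%, fell by 18.4 points (SE 5.40, adjusted p = 0.0166), and Irx3, with 27.5, 26.3, 17.9 and 16.95%, rose by 8.45 points (SE 1.97, adjusted p = 0.0112). Pax5, Pax2 and Dlx3 fell by 7.91, 7.41 and 7.36 points. Among regions, that of Pax7 at chr4:139757010-139757300 fell by 24.3 points (SE 5.71, adjusted p = 0.0110), and those of Lmx1b at 48.0 and 65.5 kb fell by 22.9 and 19.6 points. The Pax5 and Gbx2 regions at chr4:44561162-44561233 and chr1:89928771-89928994 fell by 19.9 and 19.8 points. Without LFCR mouse 63 or without LFCR mouse 67, 0 promoters, bodies, regions and CpGs of the set were called, while the differences of the Cdx1 promoter and the Gbx2 and Irx3 bodies kept their sign. The Cdx1 promoter stood at -11.0 and -12.5 points without mouse 63 and without mouse 67 (limma, adjusted p = 0.0801 and 0.0733), and at -7.10 without both (adjusted p = 0.562). The Gbx2 body stood at -14.8 and -15.99 points (limma, adjusted p = 0.0789 and 0.0701), and at -9.42 without both. The Irx3 body stood at 6.69 and 7.06 points (limma, adjusted p = 0.0612 and 0.0578), and at 3.72 without both. When Control and LFCR were fitted without the other groups, 0 members were called as well, at the differences of all mice and adjusted p of 0.0726 for the Cdx1 promoter, 0.0548 for the Gbx2 body and 0.0503 for the Irx3 body in limma.

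Mouse by mouse, LFCR mice 63 and 67 stood beside the MCR mice and LFCR mice 69 and 72 nearer to Control. Over the 68 regions that fell in MCR, the mean difference from Control was -11.3, -11.7 and -10.3 points in the MCR mice 85, 95 and 96. LFCR mice 63 and 67 stood at -11.2 and -10.8 points, and LFCR mice 69 and 72 at -5.24 and -2.38. LFD mouse 42 was at -8.43 and LFD mice 47 and 48 at -1.95 and -3.76. The ICR mice ran from -6.61 to -1.46, and Obese mouse 22 was at -2.25. Over the 23 regions that rose, the MCR mice were at 11.4, 8.78 and 13.1 points, LFCR mice 63 and 67 at 9.57 and 9.64, and LFCR mice 69 and 72 at 4.71 and 1.80. The LFD mice were at 6.33, 3.64 and 6.60 and the ICR mice at 2.23 to 7.77. The MCR values chose these regions and are given as a description, and all diets share the Control mice.

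**Figure D5:**
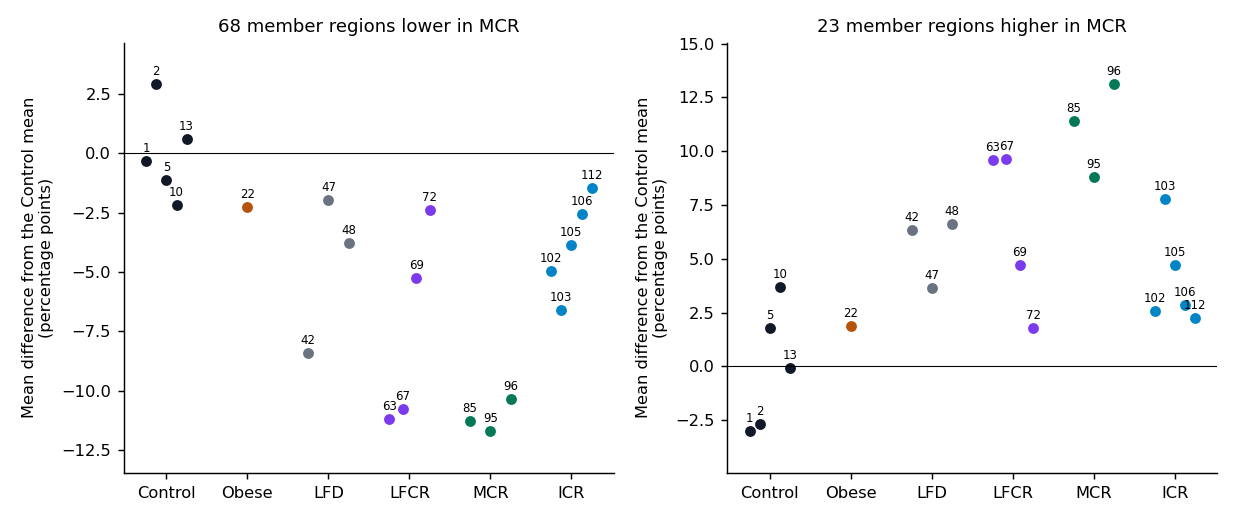
Mean difference of each mouse from the Control mean, in percentage points, over the 68 member regions that fell in MCR (left) and the 23 that rose (right), by diet group, with the mouse number above each point. LFCR mice 63 and 67 lie beside the MCR mice, and LFCR mice 69 and 72 lie nearer to Control.

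After LFD and ICR, 0 member features were called, against 0% of all promoters, bodies and CpGs for either diet, 0% of regions for ICR and 0.00586% of regions for LFD. At an unadjusted p under 0.05 in limma, LFD had 2 member promoters lower and 2 higher, 3 bodies lower and 7 higher, 17 regions lower and 18 higher and 118 CpGs lower and 69 higher. Over the whole table LFD had 557 of 2792 promoters lower and 83 higher, and 1568 of 5556 bodies lower and 144 higher. Of all 17055 regions 4035 were lower and 657 higher, and of 129217 CpGs 20274 were lower and 4098 higher. ICR had 7 promoters lower and 1 higher, 3 bodies lower and 4 higher, 14 regions lower and 11 higher and 102 CpGs lower and 49 higher. Over the whole table ICR had 375 promoters lower and 65 higher, and 870 bodies lower and 112 higher. It had 2586 of all regions lower and 494 higher, and 13547 of all CpGs lower and 2980 higher. The smallest p among LFD promoters were at Cdx1 (-12.1 points, adjusted p = 0.138) and Otx1 (4.37, adjusted p = 0.148). Among LFD bodies they were at Dlx4, a placental factor, with 14.5, 7.61, 9.49, 13.2 and 9.16% in Control and 26.5, 14.5 and 18.7% in LFD (9.12 points, adjusted p = 0.101), and at Gbx2 (-16.9). Without LFD mouse 47, the bodies of Dlx4 (11.8 points) and Gbx2 (-21.7) were called and 7 member regions passed. The shares of all bodies and regions called in that fit are not given here, so these calls cannot be read as particular to the set. A Pitx1 region at chr13:55828197-55828409 had 12.9, 11.8 and 11.4% in LFD, 7.55, 5.86, 5.20, 4.68 and 8.49% in Control and 10.7, 4.00 and 10.1% in MCR, with an LFD difference of 5.68 points (adjusted p = 0.0926). For ICR the smallest p were at the promoters of Barhl1 (-2.19 points, adjusted p = 0.246) and Tlx3 (-2.79) and at the bodies of Irx3 (5.82, adjusted p = 0.280) and Lhx3 (-3.50). Among ICR regions they were at chr4:44561162-44561233 of Pax5 (-11.9 points, adjusted p = 0.248) and chr6:6879029-6879097 of Dlx5, with 17.9, 33.5, 21.3, 16.1 and 16.05% (14.5 points). These do not show that LFD or ICR left the genes as in Control.

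Between weight-loss diets, differences were called for MCR against ICR. There 2 promoters fell and 0 rose, or 5.56% and 0%, against 19.4% lower and 1.5% higher over all promoters. They were Cdx1, with 30.4, 26.7, 33.1, 34.3 and 35.3% in ICR and 16.5, 16.5 and 21.5% in MCR, a difference of -13.8 points (SE 3.63, adjusted p = 0.0246), and Lhx1, at -3.78 points (SE 1.15, adjusted p = 0.0349). Among bodies 7 were lower and 3 higher in MCR, or 14.6% and 6.25%, against 39.2% lower and 1.93% higher over all bodies. The lower bodies were Gbx2 (-19.5 points), Pax5 (-7.50), Pax2 (-5.95), Pax7, Cdx2, Nkx2-1 and Lhx5, and the higher ones were Irx3 (7.51), En1 (6.57) and Emx2. All 3 MCR mice lay beyond every ICR mouse at Gbx2, Pax5, Pax2 and Irx3. Without MCR mouse 85, 95 or 96 or ICR mouse 112, 0 promoters were called, and 1 without ICR mouse 105 or 106. Body calls went from 10 to 0, 2 and 3 without MCR mouse 85, 95 and 96, and to 6, 5 and 3 without ICR mouse 105, 106 and 112. MCR against LFCR, the same calorie cut with another diet, gave 0 called promoters and bodies, against 0% of all. Its smallest p were at the promoters of Otx1 (3.07 points) and Cdx1 (-6.82) and the bodies of Lhx3 (-4.09) and Cdx2 (-3.90). This comparison had 0 member promoters at an unadjusted p under 0.05 in limma, and 2 member bodies lower and 1 higher. Over all genes, 248 of 2792 promoters were lower and 42 higher at that p, and 680 of 5556 bodies were lower and 68 higher. LFCR against LFD, the cut added to the low-fat diet, also gave 0 calls against 0% of all. At an unadjusted p under 0.05 in limma it had 5 promoters lower and 0 higher, among them Cdx2 (-1.89 points) and Lhx1 (-3.44), and 4 bodies lower and 1 higher, among them Dlx4 (-8.20 points) and Irx4 (-4.56). Of all 2792 promoters 115 were lower and 27 higher at that p, and of 5556 bodies 208 were lower and 38 higher.

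Obese mouse 22, kept on high-fat food, lay near Control at most members, with a median difference of 0.0879 points over promoters and -0.617 over bodies. It was below every Control mouse at 43 of 216 regions and above every Control mouse at 40. Among the 68 regions that fell in MCR it was below them at 25 and above at 3, and among the 23 that rose it was below at 1 and above at 7. The called regions were chosen by their difference from the same Control mice, so these counts are a description. At the 125 member regions that were not called, Obese mouse 22 was below every Control mouse at 17 and above at 30. The same counts over all regions were not made. This is 1 library, and it allows no test.

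Other homeobox genes, counted from a list of 98, had 15 promoters lower and 4 higher of 39 tested in MCR and 24 bodies lower and 4 higher of 62, with median differences of -1.36 and -3.14 points (-3.78 and -7.58 over all). The Hox clusters had 15 promoters lower and 3 higher of 30 and 13 bodies lower and 6 higher of 25, with medians of -2.13 and -5.52 points. Of 30 genes of Polycomb complexes, 3 promoters were lower and 0 higher of 7 tested, and 10 bodies lower and 1 higher of 15, with medians of -6.46 and -8.06 points. In the same comparison 43.2% of all promoters were lower and 4.26% higher, and 61% of all bodies were lower and 4.19% higher. These lists were counted without a test between them or against all genes.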

How the data were processed

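DNA from the fat pad opposite the tumor was read by RRBS in 25 mice, 1 library each. The deposited table gives the methylated fraction of reads at each CpG in each library, and the authors' coverage signal per CpG. From the values this signal is an average over 21 libraries, since 21 times it was whole, within 0.001, at 100% of CpGs. Bismark and mm10 are named per the submitters' processing notes, and versions, filters and any strand merging are not given in the sources used here. Reads per library are not given either, so the depth of single values is unknown and no interval on them can be had. Libraries had values at 48.3 to 99.5% of CpGs, and the average coverage had a median of 29.3 reads over the 283974 CpGs of the table, 56.9 over the 129217 that were tested and 68.3 over the members' tested CpGs.

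Fractions were multiplied to percent. CpGs with an average coverage of at least 10 and values in at least 3 mice of each diet group were kept. To set mice with different missing CpGs on a common scale, the average deviation of a mouse from the CpG means was added to the average of those means, wherever a share of 0.5 of the CpGs or more was present. Mice without a level at a feature dropped out of its fit. Levels were compared with limma 3.58.1 in R 4.3.3 in 1 fit over 21 libraries with a term per diet group, two-sided, with Benjamini-Hochberg adjustment over all features of a level. Obese mouse 22 had its own term and no test. The script was tested on simulated data. Mouse numbers came from the titles and are shared by no groups, so nothing was paired.

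The members and all lists were chosen with earlier results of these data known. Named for MCR against Control were up to 12 called promoters, bodies and regions of largest difference, gains and losses apart, and 2 CpGs per direction. For other comparisons up to 5 called features were named, or the 2 of smallest p, and families were described whole. Alternatives were the coverage minimum, complete CpGs, the number of CpGs per feature, the region gap, the arcsine scale, limma's trend and robust options, a fit on the compared groups only, all 25 libraries, promoters without the 1st exon and leaving out each mouse. Sequences came from RefSeq tables of GRCm38.p6, which is mm10. No genome was used.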

Additional observations from a re-analysis of the deposited data

Results flagged for a closer look

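Single mice stood apart from their group in 2 of the 102 groups of 4 to 10 mice that were looked at for named features, where chance gives about 5%. At the Lhx5 promoter, Control mouse 10 had 3.02% and the other Control mice 4.99 to 5.40%. At the Pax7 region that rose in MCR, ICR mouse 112 had 11.7% and the other ICR mice 15.6 to 16.6%, within the Control range.

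Diets differed from each other, by a test of the difference itself, between MCR and ICR, with 2 member promoters and 10 member bodies called in limma. The members' shares of lower features were below those of the table, with 5.56% of member promoters lower in MCR against 19.4% of all, and 14.6% of member bodies against 39.2%. Higher in MCR were 6.25% of member bodies against 1.93% of all bodies. Without MCR mouse 85, 0 promoters and 0 bodies of the set were called. The promoter count was also 0 without MCR mouse 95 or 96 or ICR mouse 112, where 2, 3 and 3 bodies were called.

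In the libraries outside the comparisons the mean level over member promoter CpGs was 45.5, 45.9 and 46.5% in Obese mice 27, 28 and 40 and 46.3% in LFD mouse 46, against 6.02 to 10.0% in the other 21. Over all CpGs the mean ran from 60.2 to 66.2% in these 4 libraries and from 46.5 to 58.3% in the 21.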

How the results depend on the processing

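Leaving out 1 mouse, MCR against Control had 7 to 11 promoters (10 with all mice), 16 to 20 bodies (20), 73 to 91 regions (91) and 268 to 373 CpGs (256 lower and 114 higher). For LFCR against Control, leaving out 1 mouse gave 0 to 11 promoters (7), 0 to 15 bodies (10), 0 to 75 regions (49) and 0 to 237 CpGs (118). It gave 0 to 2 bodies and 0 to 7 regions for LFD against Control (0 and 0) and 0 to 2 promoters and 0 to 12 bodies for MCR against ICR (2 and 10). Counts over all features in these fits are not given here. Without both LFCR mice 63 and 67, an alternative chosen after seeing the data, LFCR had 0 calls at all 4 levels, as in a fit on the 2 compared groups only, where MCR against ICR had 6 promoters. Promoters without 1st exon CpGs, of which 9 could be tested, gave 2, 0 and 0 calls for MCR and LFCR against Control and MCR against ICR, and turned the differences of Pax2 (0.714 points) and Otx1 (-0.581) in MCR, Barhl1 (0.374) in LFCR and Otx1 (-0.414) in LFD. At least 10 CpGs per feature left 8 promoters to test, with 4 called for MCR and 3 for LFCR. For MCR against ICR, complete CpGs or at least 1 CpG per feature left 1 promoter. In all 25 libraries MCR against Control kept 1 promoter, 5 bodies, 42 regions and 228 CpGs, LFCR had 0, 0, 14 and 41, and MCR against ICR 0 and 0. For MCR against Control the promoter differences of Tlx3 (-5.87 points) and Otx1 (6.49) stayed the same in all 25 libraries, although their calls were lost. All groups share 1 estimate of the spread, which the added libraries enter. The cause was not tested. No paired analysis was possible because the groups share no mouse numbers. Reads per library are unknown, so depth could not be weighed mouse by mouse.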
